A study of Homo sapiens with 6 samples.

Results

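The FGF homologous factors (FHFs) are a family of 4 genes, FGF11, FGF12, FGF13 and FGF14, and all 4 symbols were found in a table of 56832. They were selected by name, and FGF13 was put forward because its mRNA was higher in the knockout. The values of FGF13 in that comparison are therefore given as a description, without a test. The libraries were made from poly(A)-selected RNA of HEK293T, an established human line of embryonic kidney origin, transformed with adenovirus DNA and producing SV40 large T antigen. There were 3 wild-type libraries and 3 from cells labelled as a SMARCA3 knockout, SMARCA3 being the protein of the HLTF gene, a SNF2-family helicase with a ubiquitin ligase domain. No treatment or time is given in the labels, which also do not say whether the knockout is 1 clone or whether replicates were separate cultures. The p-values thus take in no more than the spread among the 6 libraries, part of which may be technical.

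FHFs share the core fold of fibroblast growth factors but lack a classical secretion signal and remain inside the cell. They bind the cytoplasmic tail of voltage-gated sodium channels, where they alter inactivation and surface density, and they are best known from neurons and heart muscle. Each gene makes several proteins through alternative first exons, which give different N-termini, and FGF13 has also been described as a tubulin-binding protein that stabilises microtubules in developing neurons.

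Total counts ran from 33125811 to 41593655 per library, with the knockout libraries the shallower ones. Log2 CPM (a count divided by the TMM-scaled library total in units of 1e6) correlated across genes at r = 0.994 to 0.996 within a group and at r = 0.978 to 0.983 between groups. HLTF mRNA was present in all 6 libraries, at 200 ± 13.1 CPM in wild-type against 143 ± 5.26 CPM in the knockout (SD, n = 3). Of 5 epithelial markers, KRT19 had no count and the other 4 fell, KRT18 from 30.7 ± 2.62 to 13.8 ± 0.539 CPM in the mean. The summed level of the 5 was 40.7 to 45.6 CPM in wild-type against 20.5 to 21.8 CPM in the knockout. Kidney progenitor markers were present without PAX8 (4 counts in wild-type, 1 in the knockout), and their sum was 74.4 to 77.2 against 68 to 74.3 CPM. The 9 neuron markers summed to 172.6 to 179.9 CPM in wild-type against 134.6 to 139.5 CPM in the knockout, with 1 higher (RBFOX3), 2 lower (SYT1 and NEFM) and 4 not called among 7 tested. Most of the difference in that sum is NEFM, at 34.8 ± 2.85 CPM in wild-type against 0.0501 ± 0.0633 CPM in the knockout, while NEFL and INA, the highest of the list, were not called. Of 7 fibroblast and 7 blood markers, 3 and 2 had enough counts to test, none was called with edgeR, and the sums were 7.37 to 9.16 and 2.46 to 3.75 CPM in wild-type against 6.95 to 7.78 and 2.88 to 3.42 CPM in the knockout. At an unadjusted p of 0.05 and with DESeq2 or limma-voom the count was also 0. Over all tested genes, 31.8% were called in either direction. The part of these markers in the results below was not tested.

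FGF13 was the member with the highest level in the knockout. It had 22, 17 and 20 counts in replicates 1 to 3 of the wild-type and 354, 397 and 353 counts in replicates 1 to 3 of the knockout. In CPM these were 0.530, 0.436 and 0.524 against 10.3, 10.8 and 10.7. The lowest knockout library lay far above the highest wild-type library, and within each group the counting intervals of the libraries overlapped. The means were 0.497 ± 0.0527 and 10.6 ± 0.252 CPM (SD, n = 3), that is 21.3 times as much (95% counting interval 16.4 to 28.2). The log2 fold change of 4.40 (SE 0.12) is the value by which FGF13 was selected, and it stood at rank 22 from the top among 18061 tested genes. In bulk RNA, more cells that express a gene and more RNA per cell cannot be told apart.

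FGF12, the FHF that is also prominent in heart muscle, went the other way. It had 97, 74 and 86 counts in replicates 1 to 3 of the wild-type, or 2.34, 1.90 and 2.26 CPM. In knockout replicates 1 to 3 it had 11, 23 and 10 counts, or 0.320, 0.625 and 0.303 CPM. All 3 knockout libraries lay below all 3 wild-type libraries, and knockout replicate 2 was the highest of its group. FGF12 fell from 2.16 ± 0.233 to 0.416 ± 0.181 CPM (SD, n = 3), which is a 5.20-fold lower level (95% counting interval 3.71 to 7.23). The log2 fold change of FGF12 was -2.35 (SE 0.24, edgeR adjusted p = 3.32e-05), at rank 137 from the bottom of the tested genes, and it was lower in 3 of 3 knockout libraries. The exact permutation test over the 6 libraries gave a two-sided p = 0.1, the smallest that 3 against 3 libraries allow.

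FGF11, the least studied FHF, was near the limit of detection. Its counts were 15, 23 and 13 in replicates 1 to 3 of the wild-type and 7, 12 and 4 in replicates 1 to 3 of the knockout, or 0.362, 0.590 and 0.341 CPM against 0.204, 0.326 and 0.121 CPM. The groups did not overlap, but the highest knockout and the lowest wild-type library were nearly equal. The means were 0.431 ± 0.138 and 0.217 ± 0.103 CPM (SD, n = 3). The log2 fold change of -0.95 (SE 0.39) did not pass the edgeR test (adjusted p = 0.0871). The exact permutation p was 0.1, the smallest that 3 against 3 libraries allow, so that test cannot decide. The counting of FGF11 may also be uncertain, since 71.9% of the 50-base windows of its transcripts recur in AC113189.2 and AC113189.4, annotated on the same strand. Neither of these genes was matched to a symbol among the counts. Whether the annotation used for counting held them is not known.

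FGF14, the FHF whose mutation causes an inherited cerebellar ataxia, was close to absent from the libraries. It had 1 count in wild-type replicate 1, 1 count in knockout replicate 1 and 0 in the other 4 libraries. Over a group, 1 count gives 0.00843 CPM in wild-type against 0.00960 CPM in the knockout, with upper 95% counting limits of 0.0470 and 0.0535 CPM. In the 4 libraries with a count of 0, the upper 95% counting limit was 0.0947 to 0.112 CPM. FGF14 did not pass the filter on low counts, was not tested, and no fold is given for it. A difference between the groups was not detectable at this depth.

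**Figure D1:**
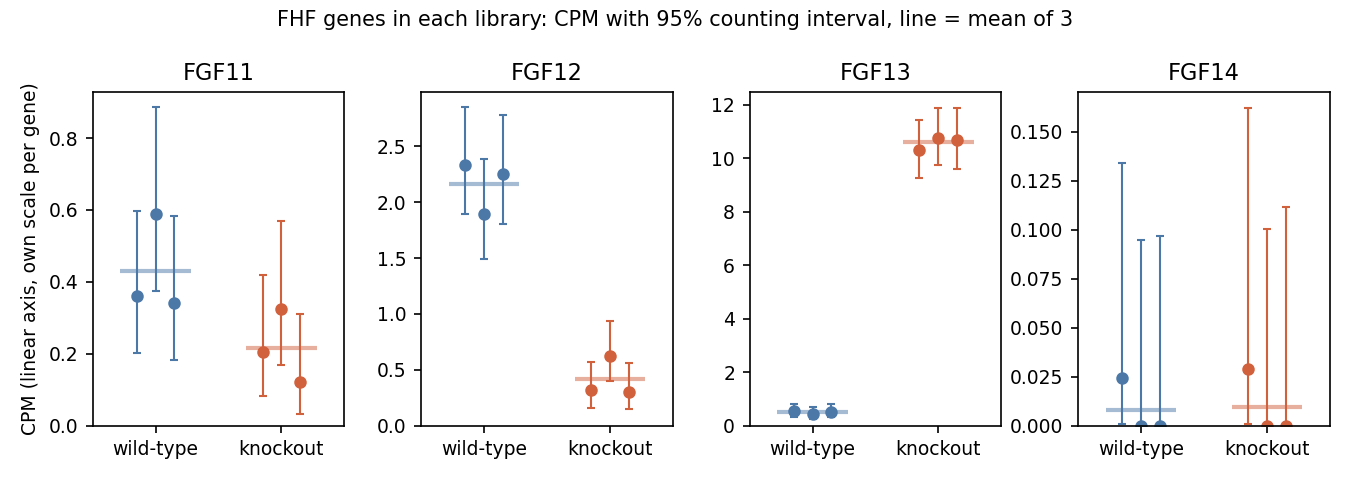
Level of each FHF gene in CPM on a linear axis with its own scale per gene, for 3 wild-type and 3 knockout libraries, as points with 95% exact Poisson counting intervals and the group mean as a line. FGF13 sits between 10.3 and 10.8 CPM in the knockout and at 0.436 to 0.530 CPM in wild-type, FGF12 is lower in every knockout library, FGF11 is low in both groups and FGF14 is at or next to 0.

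Of the 4 members, 3 passed the filter on low counts, and 2 of these, FGF11 and FGF12, were not selected on this comparison. With edgeR, 1 of these 2 was lower and 0 were higher, where 17.7% of all tested genes were called lower, 14.0% higher and 31.8% in either direction. The CPM ranges of the groups did not overlap for either of the 2, as for 45.6% of all tested genes. Calls were less frequent among weakly expressed genes. The share was 17.1% with a mean under 1 CPM, 30.9% from 1 to 5 CPM and 37.2% from 5 CPM. The shares called in the lists below are set beside that of all tested genes without a test. The median log2 fold change over all tested genes was 0.0031.

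The summed level of the 4 members was 2.93 to 3.25 CPM in the wild-type libraries and 10.9 to 11.7 CPM in the knockout libraries. FGF13, selected for its rise, carries that difference: the sum of the other 3 was 2.49 to 2.72 CPM in wild-type and 0.424 to 0.951 CPM in the knockout. To set the genes beside each other, CPM was divided by the length of all annotated exons of each gene, 5.57 kb for FGF11, 7.36 kb for FGF12, 20.7 kb for FGF13 and 13.8 kb for FGF14. On this scale FGF12 was the highest member in wild-type, at 0.294 ± 0.0317 CPM per kb (SD, n = 3), above FGF11 at 0.0774 ± 0.0249, FGF13 at 0.0240 ± 0.00255 and FGF14 at 0.000584 ± 0.00101. No neighbours in that order had overlapping ranges. In the knockout FGF13 was the highest at 0.512 ± 0.0122 CPM per kb, followed by FGF12 at 0.0566 ± 0.0246, FGF11 at 0.0390 ± 0.0185 and FGF14 at 0.000706 ± 0.00122, and the ranges of FGF12 and FGF11 overlapped.

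The order of the lower members depends on the length used, because 1 coding transcript of FGF13 is 19.5 kb long while the median of its 8 coding transcripts is 1.10 kb. Divided by the median coding transcript, a length chosen after seeing the data, FGF13 stood at 0.451 ± 0.0478 CPM per kb in wild-type, above FGF11 at 0.186 ± 0.0598, so these 2 changed places. FGF12 remained the highest wild-type member at 3.05 ± 0.328 CPM per kb and FGF13 the highest knockout member at 9.62 ± 0.229. As a share of the summed length-normalized level, FGF12 made up 77.5%, 67.0% and 78% in replicates 1 to 3 of the wild-type and 7.50%, 12.8% and 7.10% in replicates 1 to 3 of the knockout. The share of FGF13 was 6.25%, 5.47% and 6.45% in wild-type and 85.8%, 78.4% and 89.1% in the knockout. The leading FHF mRNA was FGF12 in each wild-type and FGF13 in each knockout library. FGF13 was selected for its rise, so its lead in the knockout is a description and not a separate result. A larger FGF13 share also lowers the shares of the other members, that of FGF12 included.

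**Figure D2:**
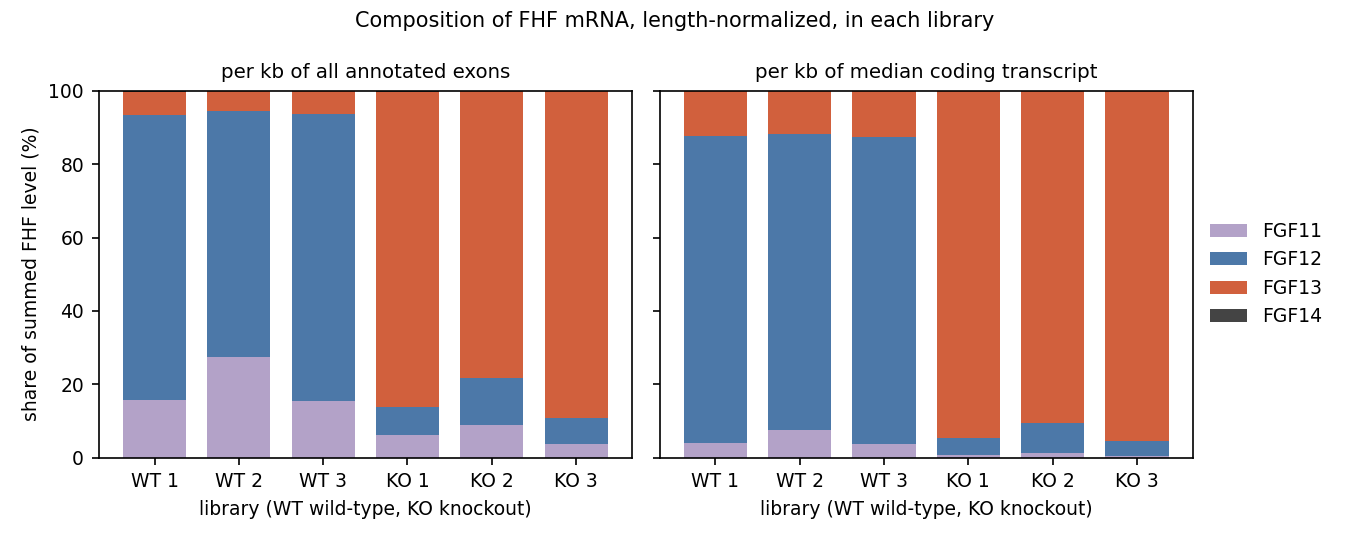
Share of each FHF gene in the summed length-normalized level of the family, in percent, for each of the 6 libraries, with CPM divided by the length of all annotated exons (left) or of the median coding transcript (right). FGF12 fills 67.0% to 78% of the wild-type bars on the left and FGF13 fills 78.4% to 89.1% of the knockout bars, and the same 2 genes lead on the right. FGF13 was selected for its rise, which also lowers the shares of the other members.

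All positions are on hg38, from GENCODE release 29. FGF13 lies at chrX:138614731-139222777, FGF12 at chr3:192139395-192767764 and FGF14 at chr13:101710804-102402457, all 3 on the minus strand, and FGF11 at chr17:7438273-7444937 on the plus strand. FGF12, FGF13 and FGF14 span 628, 608 and 692 kb, whereas FGF11 spans 6.67 kb. The 8 annotated transcripts of FGF13 begin at 8 positions spread over 511 kb, and the 9 of FGF12 at 8 positions spread over 499 kb. Counts per gene do not tell which of these starts was in use.

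The 2 starts that RefSeq gives for FGF13 and the 2 for FGF12 are shown by the 250 bases before each, since these 2 genes carry the change in the family and the sequence differs sharply between the starts of FGF13. Sequences are from RefSeq on GRCh38.p14, read 5′ to 3′ on the minus strand, with each CG dinucleotide in capitals.
FGF13, distal start, chrX:139205024-139205273: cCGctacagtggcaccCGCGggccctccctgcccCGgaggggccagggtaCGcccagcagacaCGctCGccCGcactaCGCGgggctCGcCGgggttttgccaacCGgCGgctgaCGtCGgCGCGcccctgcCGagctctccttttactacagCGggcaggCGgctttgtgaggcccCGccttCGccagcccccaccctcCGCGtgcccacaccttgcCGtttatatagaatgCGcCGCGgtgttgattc
FGF13, proximal start, chrX:138739354-138739603: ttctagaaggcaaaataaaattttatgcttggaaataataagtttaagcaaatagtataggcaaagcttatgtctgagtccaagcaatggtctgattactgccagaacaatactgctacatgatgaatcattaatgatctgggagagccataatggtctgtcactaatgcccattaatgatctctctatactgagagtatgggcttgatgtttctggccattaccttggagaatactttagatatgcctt
FGF12, distal start, chr3:192727542-192727791: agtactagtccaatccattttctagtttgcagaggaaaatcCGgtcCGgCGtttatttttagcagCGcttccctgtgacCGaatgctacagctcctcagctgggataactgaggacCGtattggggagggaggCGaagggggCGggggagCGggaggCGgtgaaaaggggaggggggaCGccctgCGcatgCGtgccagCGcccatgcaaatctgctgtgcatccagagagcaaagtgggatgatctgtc
FGF12, proximal start, chr3:192409598-192409847: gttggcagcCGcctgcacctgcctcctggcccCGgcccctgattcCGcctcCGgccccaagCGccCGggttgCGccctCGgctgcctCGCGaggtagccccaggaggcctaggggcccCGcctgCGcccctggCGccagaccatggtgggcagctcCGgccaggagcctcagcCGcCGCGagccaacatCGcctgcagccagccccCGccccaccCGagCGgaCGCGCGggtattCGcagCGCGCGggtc

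The 2 FGF13 starts are 466 kb apart. The window before the distal start holds 29 CG and is 70.4% G or C, while the window before the proximal start holds 0 CG and is 36.4% G or C. Over 35116 RefSeq promoter windows of the same length the median was 11 CG and 58% G or C, 93.9% had a CG, and 85.9% had fewer CG than the distal FGF13 window. The FGF12 windows, 318 kb apart, held 14 CG before the distal and 28 CG before the proximal start.

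Motifs were searched on both strands. TATAAA was found before the distal FGF13 start, on the other strand, and before neither FGF12 start (10.7% of all windows hold it). Only exact matches were sought, and the same stretch holds TATATA on the printed strand. GGGCGG was in both FGF12 windows and in neither FGF13 window (42.6% of all windows), and CCAAT only in the distal FGF12 window among these 4 (32.0% of all windows). The windows before the 3 FGF11 starts had 18, 5 and 16 CG, in order along the gene. Those before the 4 FGF14 starts had 41, 0, 9 and 9 CG, from the most proximal to the most distal. Each of the 4 genes had at least 1 window above the median of 11 CG, and FGF11, FGF13 and FGF14 also had windows below it. Whether CG content bears on the levels was not tested. No methylation or binding at these windows was measured here.

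Each FHF gene was next compared with its surroundings, using the first tested gene on each side and the 20 nearest genes on each side with a mean of at least 2 CPM. The 40 neighbours of FGF13, over 18.6 Mb, showed a median of -0.14 on the log2 scale. Where 17.7% of all tested genes were called lower and 14% higher, 19 of these 40 were lower, 5 higher and 16 not called. Those higher were AFF2 (4.01), GABRQ (2.17), GPR50 (1.08), MAMLD1 (0.99) and FHL1 (0.19 on the log2 scale), of which all but AFF2 are named after their values were seen. AFF2, GABRQ, GPR50 and MAMLD1 lie 9.83 to 13.7 Mb from FGF13 by gene centres, and FHL1, the nearest of the 5, lies 2.74 Mb away.

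The 40 neighbours of FGF12 had a median log2 fold change of -0.029 and ran from -0.61 (RPL39L) to 0.40 (BCL6). FGF12 at -2.35 was below every one of them. It was at rank 137 from the bottom of the 18061 tested genes, so this place is not particular to its region. The neighbours also had a mean of at least 2 CPM, which FGF12 did not reach. The median absolute log2 fold change was 0.274 for genes from 1 to 5 CPM and 0.135 from 5 CPM. The nearest tested gene, MB21D2, is 29.1 kb away and had a log2 fold change of -0.019 (edgeR adjusted p = 0.891), with 7.71 ± 0.281 CPM in wild-type against 7.61 ± 0.504 CPM in the knockout (SD, n = 3). CCDC50, 741 kb below, fell by 0.32 on the log2 scale.

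FGF11 lies between TMEM102, 0.594 kb below, and CHRNB1, 0.124 kb above. CHRNB1, a subunit gene of the muscle acetylcholine receptor on the same side as the FGF11 3′ end, fell from 7.77 ± 0.476 to 5.39 ± 0.635 CPM (SD, n = 3), while TMEM102 was not called (log2 fold change -0.15). The 40 neighbours of FGF11 had a median log2 fold change of -0.029. Exons of FGF14 overlap those of ITGBL1 on the other strand by 4354 bases, and ITGBL1 had 1, 2 and 0 counts in wild-type and 7, 2 and 4 in the knockout. NALCN, the sodium leak channel gene 294 kb below FGF14, had 38, 37 and 50 counts in wild-type and 7, 14 and 7 in the knockout. It fell from 1.06 ± 0.219 to 0.265 ± 0.0996 CPM. The log2 fold change of NALCN was -1.96 (SE 0.29) and its edgeR adjusted p was 0.000487. The antisense gene FGF13-AS1, whose exons overlap those of FGF13 by 167 bases, had 1, 0 and 0 counts in wild-type and 2 in each knockout library. MIR504, a microRNA gene inside FGF13, had 0 counts in all 6 libraries, in a protocol that selects poly(A) RNA.

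**Figure D3:**
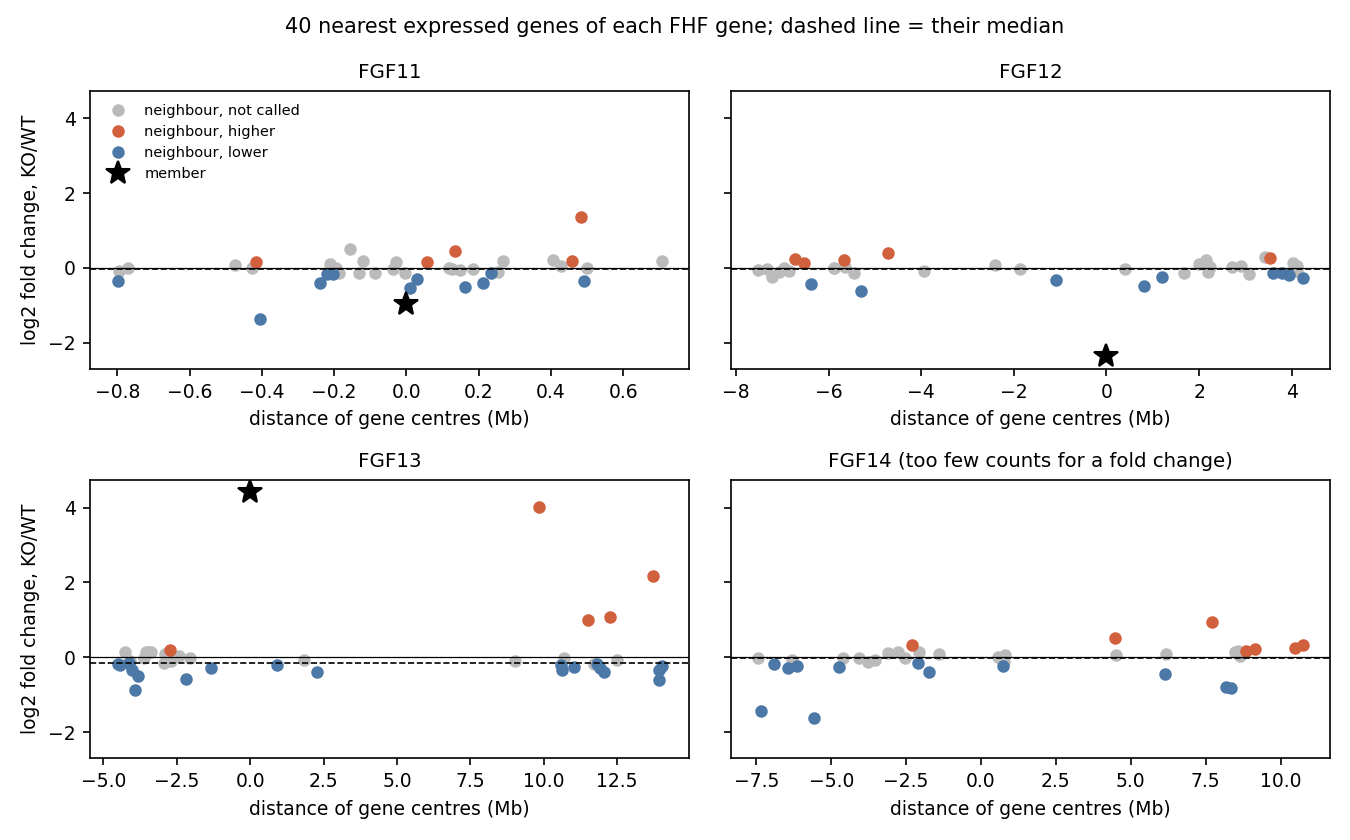
Log2 fold change (knockout over wild-type) of the 40 nearest expressed genes of each FHF gene against the distance between gene centres in Mb, with called genes coloured by direction, the member as a star and the neighbours' median as a dashed line. Neighbours have a mean of at least 2 CPM, which FGF12 itself does not reach. FGF12 at -2.35 lies below all its neighbours, and FGF13 at 4.40 lies above all of its own, of which AFF2 at 4.01 comes next.

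Over the 6 libraries, the genes whose log2 CPM profile was nearest to that of FGF13 were sought among the 14494 tested genes that reached 1 CPM in 1 of the groups on average. The measure was the Euclidean distance after subtracting the wild-type mean, and since FGF13 was selected for its difference between the groups, such genes mainly share that difference. The nearest was STMN2, a stathmin that destabilises microtubules in neurons, at a distance of 0.403. It had 0.699, 0.718 and 0.997 CPM in wild-type against 16.1, 18.1 and 18.5 CPM in the knockout. FABP6, an ileal bile acid binding protein, followed at 0.424, with 0.143 ± 0.0115 CPM in wild-type against 4.19 ± 0.333 CPM in the knockout (SD, n = 3). AFF2, an elongation scaffold, was at 0.594, and the clone-named genes AC004490.1 and RP11-671C19.1 were at 0.604 and 0.677.

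The pore-forming alpha subunits of voltage-gated sodium channels, to which FHFs bind, did not move as 1 group. Of 10 genes, 6 were tested, with a median log2 fold change of 0.088. Of the tested, 33.3% were called beside 31.8% of all tested genes, with 1 higher, 1 lower and 4 not called. These counts are small and moved with single libraries: 2 were higher without wild-type replicate 3, 0 without wild-type replicate 1, knockout replicate 1 or knockout replicate 2, and 2 were lower without wild-type replicate 2 or knockout replicate 3. The higher count was also 2 with RLE factors, the 1 CPM filter or robust dispersion, and 0 with DESeq2 or the replicate block. The lower count was also 2 with no filter on low counts. SCN9A, the channel of pain-sensing neurons, had 3.76, 3.39 and 2.65 CPM in replicates 1 to 3 of the wild-type and 1.46, 1.39 and 0.970 CPM in replicates 1 to 3 of the knockout, with no overlap between the groups. It fell from 3.27 ± 0.565 to 1.27 ± 0.263 CPM (SD, n = 3). The log2 fold change of SCN9A was -1.36 (SE 0.19) and its edgeR adjusted p was 0.000268.

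SCN4A, the skeletal muscle channel, rose from 1.57 ± 0.225 to 2.23 ± 0.164 CPM (log2 fold change 0.51, SE 0.15). That call was lost in 5 of 14 alternatives, with an edgeR adjusted p of 0.0700 without wild-type replicate 1, 0.0755 without knockout replicate 1 and 0.0668 without knockout replicate 2. SCN8A, a main channel of axons, overlapped between the groups, at 11.3, 10.5 and 9.86 CPM in wild-type against 10.1, 9.62 and 10.4 CPM in the knockout (edgeR adjusted p = 0.554). Of the 4 beta subunits, which are single-pass accessory proteins, 3 were tested. None was called with edgeR (SCN3B adjusted p = 0.0908), beside 31.8% of all tested genes. At an unadjusted p of 0.05, 1 of the 3 would be called, and DESeq2 and limma-voom called 0.

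Among 13 genes that anchor sodium channels at the axon initial segment or shape axons, all 13 were tested, with 5 lower, 3 higher and 5 not called. That is 61.5% called, beside 31.8% of all tested genes. ANK1, the erythroid ankyrin, fell from 3.66 ± 0.360 to 1.64 ± 0.161 CPM (SD, n = 3). CNTN1, a cell surface adhesion protein of axons, fell from 19.1 ± 2.27 to 7.18 ± 0.482 CPM. The microtubule protein MAP1B fell from 116 ± 6.13 to 69.5 ± 1.88 CPM. ANK3 (ankyrin-G), which holds sodium channels at the initial segment, had 32.1, 30.6 and 29.3 CPM in wild-type against 17.6, 18.0 and 18.8 CPM in the knockout, named here after its values were seen, as are SPTAN1 and CNTNAP1 below. It fell by 0.76 on the log2 scale (SE 0.06). NRCAM, another adhesion protein of the axon, rose from 20 ± 1.95 to 26.1 ± 1.73 CPM and SPTBN4, the spectrin of the initial segment, from 2.79 ± 0.326 to 3.94 ± 0.397 CPM. SPTAN1 fell by 0.12 and CNTNAP1 rose by 0.36 on the log2 scale, and these 2 calls were lost in 9 and 4 of 14 alternatives. For SPTAN1 they were lost with each library but wild-type replicate 1 left out (edgeR adjusted p 0.0552 to 0.134), and for CNTNAP1 without wild-type replicate 1 (0.0507), knockout replicate 1 (0.0564) or knockout replicate 3 (0.103).

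Calmodulin binds the sodium channel tail next to the FHF site, and MAPK8IP2 (IB2) is a kinase scaffold that binds FHFs. MAPK8IP2 had 27.5, 30.6 and 36.5 CPM in wild-type against 42.9, 36.1 and 41.0 CPM in the knockout, so that knockout replicate 2 was below the highest wild-type library. It rose by 0.34 on the log2 scale (SE 0.10, edgeR adjusted p = 0.0221), a call lost without wild-type replicate 2 (0.0553), knockout replicate 1 (0.0577) or knockout replicate 3 (0.0758). CALM2 fell by 0.21 on the log2 scale, and its call was lost without knockout replicate 1 (edgeR adjusted p = 0.0808) or knockout replicate 2 (0.0843). Of the 7 genes of this list, all tested, 42.9% were called beside 31.8% of all tested genes. Of the 7, 1 was higher, 2 were lower and 4 were not called. With 1 library left out, the higher count ran from 0 (without wild-type replicate 2, knockout replicate 1 or knockout replicate 3) to 2 (without wild-type replicate 3). The lower count was 0 without knockout replicate 1 and 1 without wild-type replicate 2, knockout replicate 2 or knockout replicate 3.

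Secreted FGFs, which unlike FHFs act through cell surface receptors, were mostly too weak to test. Of 18 genes, 7 were tested, with 3 lower, 0 higher and 4 not called and a median log2 fold change of -0.43. That is 42.9% of the tested called, beside 31.8% of all tested genes. FGF2, the basic FGF, had 23.2, 19.7 and 19.4 CPM in wild-type against 11.1, 13.1 and 13.2 CPM in the knockout, without overlap, and fell by 0.73 on the log2 scale (SE 0.10, edgeR adjusted p = 0.000184). FGF9, a ligand of kidney and gonad development, fell from 7.40 ± 0.617 to 3.03 ± 0.584 CPM (SD, n = 3). FGF5, an inhibitor of hair growth, fell from 2.09 ± 0.263 to 0.876 ± 0.198 CPM. All 3 fell in each of 14 alternatives. At an unadjusted p of 0.05, 1 secreted FGF would be called higher. DESeq2 and limma-voom called 0 higher, while edgeR called 1 higher without knockout replicate 2 and 1 with no filter on low counts.

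Of 7 FGF receptors and co-receptors, 6 were tested, with 3 higher, 0 lower and 3 not called and a median log2 fold change of 0.22. That is 50% of the tested called, beside 31.8% of all tested genes. FGFR1 rose from 80.4 ± 3.66 to 91.7 ± 1.49 CPM (SD, n = 3), or by 0.19 on the log2 scale, and its edgeR adjusted p of 0.00996 became 0.05 without knockout replicate 2. KLB (beta-klotho), the co-receptor of endocrine FGFs, rose from 1.01 ± 0.190 to 1.86 ± 0.230 CPM. The other was FGFR2, named after its values were seen, which rose by 0.19 on the log2 scale and was not called in 4 of 14 alternatives, among them without wild-type replicate 2 (adjusted p = 0.0519), knockout replicate 2 (0.0595) and knockout replicate 3 (0.0618). The count of lower receptors was 0 with edgeR, DESeq2 and limma-voom and at an unadjusted p of 0.05, but 1 without knockout replicate 1 and 1 with no filter on low counts. The count of higher ones was 5 without wild-type replicate 3 and with no filter.

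Of 17 adaptors, targets and feedback genes of FGF receptors, 16 were tested, with 3 higher, 4 lower and 9 not called. That is 43.8% of the tested called, beside 31.8% of all tested genes. FLRT2, a fibronectin leucine-rich transmembrane protein, was one of the genes with the largest known rise in these libraries when the list was drawn up, so its place in the list carries no weight. It had 0.434, 0.359 and 0.525 CPM in wild-type against 19.0, 20.5 and 19.1 CPM in the knockout. Its relative FLRT1 rose from 0.690 ± 0.0498 to 1.88 ± 0.858 CPM (SD, n = 3), with 2.82, 1.66 and 1.15 CPM in replicates 1 to 3 of the knockout.

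The feedback inhibitor SPRY1 fell from 19.8 ± 1.36 to 11.4 ± 0.817 CPM (SD, n = 3), as did ETV1, an ETS factor, from 4.62 ± 0.943 to 2.46 ± 0.417 CPM. The related ETV4 and ETV5 and the adaptor FRS3 were also called, lower, lower and higher, and those calls, of genes named after their values were seen, were lost in 4, 5 and 7 of 14 alternatives. The highest edgeR adjusted p with 1 library left out was 0.122 for ETV4 (without wild-type replicate 2), 0.0997 for ETV5 and 0.136 for FRS3 (both without knockout replicate 2). The lower count of the list was 2 without wild-type replicate 2 and 2 with DESeq2. ETV4 also lost its call without knockout replicate 1 or 3, ETV5 without wild-type replicate 1 or 2, and FRS3 without any library but wild-type replicate 2. The feedback genes DUSP6, SPRY2 and SPRY4 had log2 fold changes of -0.14, 0.06 and 0.13 and were not called (edgeR adjusted p = 0.712, 0.522 and 0.774).

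FHFs can also modulate voltage-gated calcium channels. Of 18 genes of their subunits, 13 were tested, with 6 higher, 2 lower and 5 not called and a median log2 fold change of 0.31. That is 61.5% of the tested called, beside 31.8% of all tested genes. CACNA1G, a T-type channel, rose from 0.985 ± 0.258 to 2.54 ± 0.276 CPM (SD, n = 3), CACNA1C, the cardiac L-type channel, from 2.29 ± 0.244 to 4.57 ± 0.353 CPM, and the accessory subunit CACNA2D2 from 16.1 ± 0.682 to 23.7 ± 0.655 CPM. CACNA2D3 fell from 6.69 ± 0.607 to 2.89 ± 0.262 CPM and CACNB2 from 5.94 ± 0.446 to 3.79 ± 0.146 CPM. These 5 calls held in each of 14 alternatives. CACNA1I, a further T-type channel named after its values were seen, was called higher but not without knockout replicate 1 (edgeR adjusted p = 0.0752) or with DESeq2 (adjusted p = 0.127).

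Tubulins and microtubule proteins, the other partners ascribed to FGF13, gave 6 lower, 2 higher and 10 not called among 18 tested of 20. That is 44.4% of the tested called, beside 31.8% of all tested genes. TUBA1A fell by 0.33 and TUBA1C by 0.25 on the log2 scale, while TUBB2B rose from 38.7 ± 1.11 to 51.2 ± 2.62 CPM (SD, n = 3). TUBA1B and MAP2, named after their values were seen, are among the 6 lower and lost their calls in 9 and 4 of 14 alternatives. With edgeR and 1 library left out, the adjusted p reached 0.216 for TUBA1B (without wild-type replicate 2, and past the threshold without any other but wild-type replicate 1). For MAP2 it reached 0.0746 without wild-type replicate 2, and the call was also lost without knockout replicate 1 or 3. Tubulin genes are near-identical in places, so reads may be split between them. STMN2, the gene nearest to FGF13 in profile, is the other that was higher, and like FLRT2 it was known to be so when the list was drawn up.

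**Figure D4:**
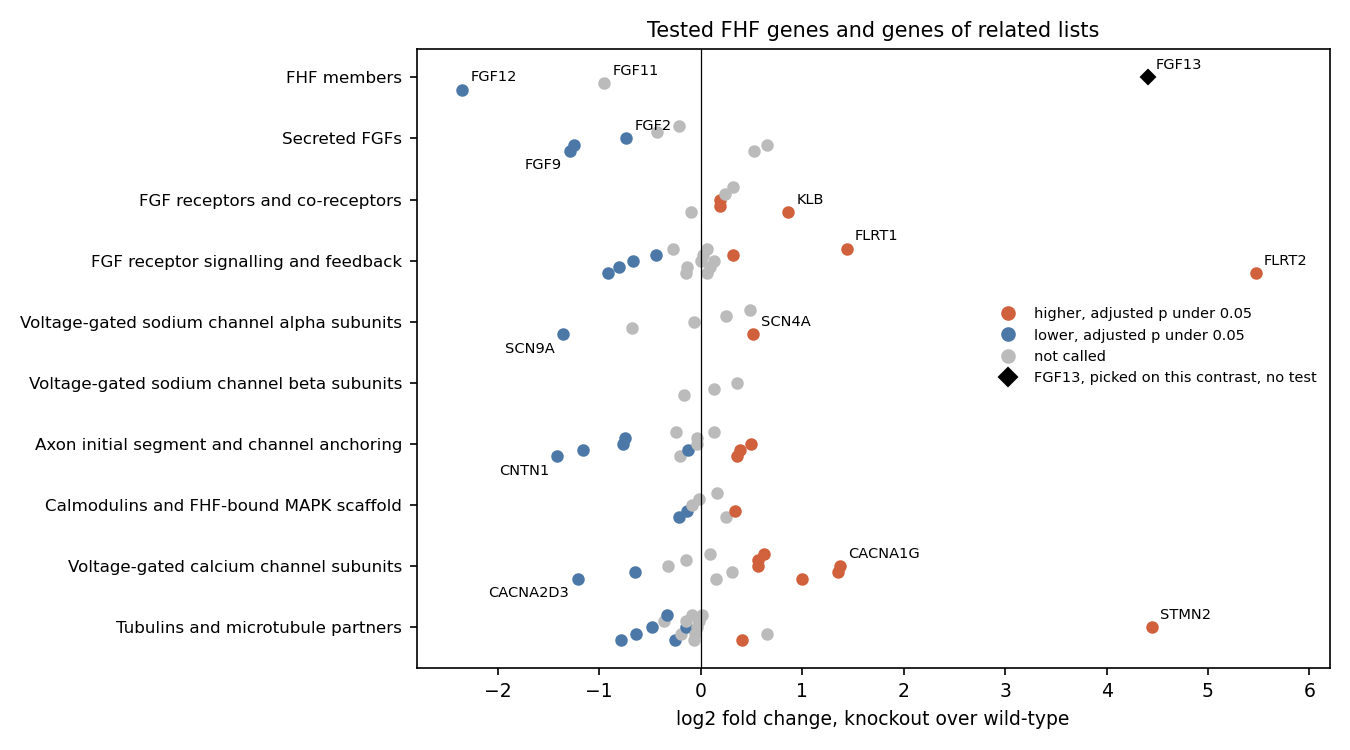
Log2 fold change (knockout over wild-type, horizontal axis) of the tested FHF genes and of the tested genes in 9 related lists, 1 point per gene, coloured by the edgeR call and spread vertically only to separate points. FGF12 at -2.35 and FGF13 at 4.40 lie at opposite ends of the family, and most genes of the other lists lie between -1 and 1.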

How the data were processed

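The values deposited by the authors are unnormalized counts of reads, whole numbers listed by gene symbol for each of the 6 libraries. Per the submitters' processing notes, Trim Galore, STAR 2.4, Picard, HTSeq 0.9.1, DESeq2 and hg38 were used, with no role or order given. Per the labels' protocols a stranded poly(A) kit and paired reads were used. Which annotation and strand setting the counting used is not given in the sources used here; a gene and its antisense partner may not have been told apart. Columns were assigned by the names in the labels. Each library was counted as 1 sample. Within a group, every pair of libraries differed beyond sampling noise (chi-square over its degrees of freedom 3.60 to 15.3). That does not show whether the replicates were separate cultures.

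The test was edgeR 4.0.16 (R 4.3.3). Of 56832 symbols, filterByExpr kept 18061, libraries were scaled by TMM (0.997 to 1.005), and knockout was tested against wild-type by the quasi-likelihood F test over all kept genes, two-sided, with Benjamini-Hochberg adjustment at 0.05. CPM used the TMM-scaled totals. Ratios and intervals of counts are exact at 95% and take in counting error alone, as reads that carry no molecular identifier need not be separate molecules. The permutation test used log2(CPM + 0.1). Positions, exon lengths and transcripts come from GENCODE release 29, which placed 77.8% of tested genes by current or former symbol; genes without a position are no neighbours here. No 50-base window was shared between transcripts of 2 FHF genes. The edgeR procedure was tested on simulated data. The values of some genes that the rule below names are not reported here.

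The members and lists were chosen with earlier results of these data known. Genes named are the members, the first tested or overlapping genes beside them, called list genes that reach 1 CPM in a group and differ by 1 or more on the log2 scale, for each list up to 2 called genes each way by smallest p, the highest members of a list and the 5 genes nearest to FGF13. Alternatives were RLE factors, library size only, no filter, at least 1 CPM in 3 libraries, DESeq2 1.42.0, limma-voom (limma 3.58.1), robust dispersion, a replicate block, each library left out and a threshold of 0.01. The median transcript length was added after seeing the data.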

Additional observations from a re-analysis of the deposited data

How the results depend on the processing

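FGF12 was called lower in each of 14 alternatives, with log2 fold changes from -2.78 (without knockout replicate 2) to -2.17 (without knockout replicate 3) and adjusted p-values up to 0.0012. FGF11 was not called in any of the 13 alternatives that gave a value (log2 fold change -1.38 to -0.66, adjusted p 0.0517 to 0.28), and it failed the filter of 1 CPM in 3 libraries. The described log2 fold change of FGF13 ran from 4.33 to 4.46. The count of all genes called, 5737 with edgeR, was 4232 to 6213 with another tool, scaling, filter, dispersion or block, 4209 to 6084 with 1 library left out and 3477 at an adjusted p threshold of 0.01. Of 43 called genes of the lists, FGF13 left out, 29 kept their call in every alternative that gave a value. The threshold of 0.01 is not among the alternatives of that count. With the replicate number as a block, the log2 fold change of FGF12 was -2.36 (adjusted p = 0.0012) and that of FGF11 -0.98 (adjusted p = 0.0648). Libraries with the same number did not deviate together (r = -0.227, -0.0144 and -0.0547 for numbers 1 to 3), so the number is not taken as a pairing. Depth limits FGF14 and FGF11, where a few counts decide the value.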
